A study of Mus musculus with 8 samples.

Results

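The Sall genes Sall1, Sall2, Sall3 and Sall4 were examined in fibroblasts on the way to pluripotency. They are 4 of the 21911 protein-coding genes of the GENCODE vM21 annotation of mouse build mm10, and were taken by name. Each gene was given a window of its gene body plus 50 kb on each side, and every peak in a window was read for NANOG, BRG1 and 2 histone marks. The data are CUT&Tag, in which a transposase is tethered through an antibody and cuts sequencing adapters into the DNA around the protein or mark of interest. All libraries came from mouse embryonic fibroblasts (primary cells of mid-gestation embryos) at day 5 after retroviral infection with Oct4 and a form of Nanog, and per the study's methods the cells were OG2 fibroblasts, which carry an Oct4-GFP reporter. In the arm labelled Nanog+Oct4 (NanogWT) the second factor was wild-type Nanog. In the arm labelled NanogN70+Oct4 it was a Nanog with the BRG1-interacting domain of SS18 at its N-terminus, which the study's text calls NanogBiD. The antibodies were against the FLAG tag on NANOG, against BRG1 (the catalytic subunit of the BAF remodelling complex, encoded by Smarca4), against H3K27ac, a mark of active promoters and enhancers, and against H3K4me1, a mark found at enhancers and around promoters. With 4 targets in 2 arms this gave 8 groups of 1 library each, whose replicates the authors had merged, so that no test between arms was possible and each interval below covers counting error only. Retroviral delivery gives a mixed population of cells, and a change in the share of cells cannot be told apart from a change within each cell.

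SALL proteins are zinc-finger transcription factors of the spalt family. A short motif at their N-terminus recruits the NuRD complex, a corepressor that joins histone deacetylases to a nucleosome remodeller. Sall4 is a gene of the pluripotency network whose protein works with OCT4 and NANOG in embryonic stem cells, where Sall1 is also expressed, while Sall1 is needed for kidney development and Sall2 and Sall3 are known mainly from the nervous system and other developing tissues.

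The lists held 58940 FLAG peaks in NanogWT and 74782 in NanogBiD, 30859 and 53748 BRG1 peaks, 35452 and 42598 H3K27ac peaks, and 72242 and 57156 H3K4me1 peaks. The height of a peak is the number of tags at its summit, and the score is the significance score of the peak caller, which started at 50 in every list. Neither was scaled to depth, and the depth of the libraries is unknown. Of 15 fibroblast genes, such as Col1a1 and Thy1, 13 had an H3K27ac peak within 2 kb of a start site in both arms, 1 had it in NanogBiD only and 1 had none, where 55.6% of all promoters had it in both arms, 4.29% in NanogBiD only and 38.6% in neither. None of the 4 marker genes of pluripotent cells (Zfp42, Dppa5a, Esrrb and Utf1) had such a peak in either arm. Of the markers of other cells, 1 of 2 blood genes (Ptprc), 1 of 2 endothelial genes (Cdh5) and 1 of 2 epithelial genes (Krt8) had it in NanogBiD only, and the part of these cells in the results was not tested.

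Of the 11 FLAG regions found in 1 arm only, the sequences under 4 summits are given first, to show the DNA at sites where the lists of the arms differ. The 4 summits at Sall3 and the 3 over exons (the promoters of Sall1 and Sall4, and Mettl3) are not printed. All are from mouse build mm10 (GRCm38.p6), 5′ to 3′ on the plus strand, and 101 bases long with the summit in the middle. Capitals mark a match, on either strand, to a SOX motif (ACAATG or ACAAAG) or to a TEAD motif (GGAATG). The Sall2 intron stretch (chr14:52320790-52320890) and the stretch downstream of Sall1 (chr8:89003570-89003670) had a FLAG peak in NanogBiD only, as did a stretch in an intron of Atp9a in the Sall4 window (chr2:168708019-168708119). The Sall4 intron stretch (chr2:168762135-168762235) had it in NanogWT only.
Sall2 intron: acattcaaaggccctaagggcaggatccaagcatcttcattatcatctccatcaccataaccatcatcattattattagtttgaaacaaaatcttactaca
Sall1 downstream: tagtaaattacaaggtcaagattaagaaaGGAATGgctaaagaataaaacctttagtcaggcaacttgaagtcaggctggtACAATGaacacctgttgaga
Atp9a intron: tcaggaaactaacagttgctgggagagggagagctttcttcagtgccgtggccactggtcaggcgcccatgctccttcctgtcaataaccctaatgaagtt
Sall4 intron: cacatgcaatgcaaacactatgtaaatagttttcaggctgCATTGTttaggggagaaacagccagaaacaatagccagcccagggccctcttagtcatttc

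For the FLAG and BRG1 peaks that lay over start sites, the 250 bases before a RefSeq start (build GRCm38.p6) were read. The promoter table matched 2 of the 4 members, Sall1 and Sall2. The first Sall1 stretch (chr8:89042863-89043112) lay inside the FLAG peak of NanogBiD, the second (chr8:89043513-89043762) inside the BRG1 peak of NanogWT, and the Sall2 stretch (chr14:52316324-52316573) spanned the gap between the BRG1 peak of NanogWT and that of NanogBiD. All are given on the minus strand, from which these genes are read, and hold no match to the 5 kinds of motif searched, so that no base is in capitals. The 250 bases before the outermost Sall1 start (chr8:89044163-89044412), which no FLAG or BRG1 peak covered, are not printed and hold a match to the homeodomain core TAATGG of NANOG.
Sall1 inner start: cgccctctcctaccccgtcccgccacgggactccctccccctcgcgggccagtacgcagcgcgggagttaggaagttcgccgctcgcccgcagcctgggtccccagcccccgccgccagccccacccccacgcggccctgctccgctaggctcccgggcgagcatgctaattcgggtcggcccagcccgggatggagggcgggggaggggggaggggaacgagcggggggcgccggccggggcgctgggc
Sall1 next start: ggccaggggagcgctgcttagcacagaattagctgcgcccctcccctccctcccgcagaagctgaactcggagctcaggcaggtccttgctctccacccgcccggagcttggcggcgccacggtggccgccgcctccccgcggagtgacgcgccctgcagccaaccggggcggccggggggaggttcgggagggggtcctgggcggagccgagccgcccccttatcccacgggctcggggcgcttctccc
Sall2 inner start: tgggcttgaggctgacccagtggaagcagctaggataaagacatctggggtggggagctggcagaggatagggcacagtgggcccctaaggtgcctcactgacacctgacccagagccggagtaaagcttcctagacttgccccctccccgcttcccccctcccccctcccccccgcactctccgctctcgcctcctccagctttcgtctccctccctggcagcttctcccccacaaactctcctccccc

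The 4 windows were of nearly the same length, from 116.928 kb at Sall1 to 120.396 kb at Sall3, and all 4 genes are on the minus strand. Peaks of the 8 lists merged into 34 regions, of which 5 were in the window of Sall1, 9 in that of Sall2, and 10 each in those of Sall3 and Sall4. Of these, 7 were within 2 kb of a start site of the Sall gene, 3 were elsewhere in its body, 6 were at the promoter of a neighbouring protein-coding gene, 4 were elsewhere in a neighbour's body and 14 were intergenic. The neighbours are Mettl3, Rab2b and Tox4 (and the olfactory receptor genes Olfr1512 and Olfr1513) at Sall2, Atp9b at Sall3 and Atp9a at Sall4, and Sall1 has no other protein-coding gene in its window. The tallest summits near Sall2 and Sall3 for H3K27ac, and near Sall4 for BRG1, were at such promoters and not at the Sall gene.

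**Figure D1:**
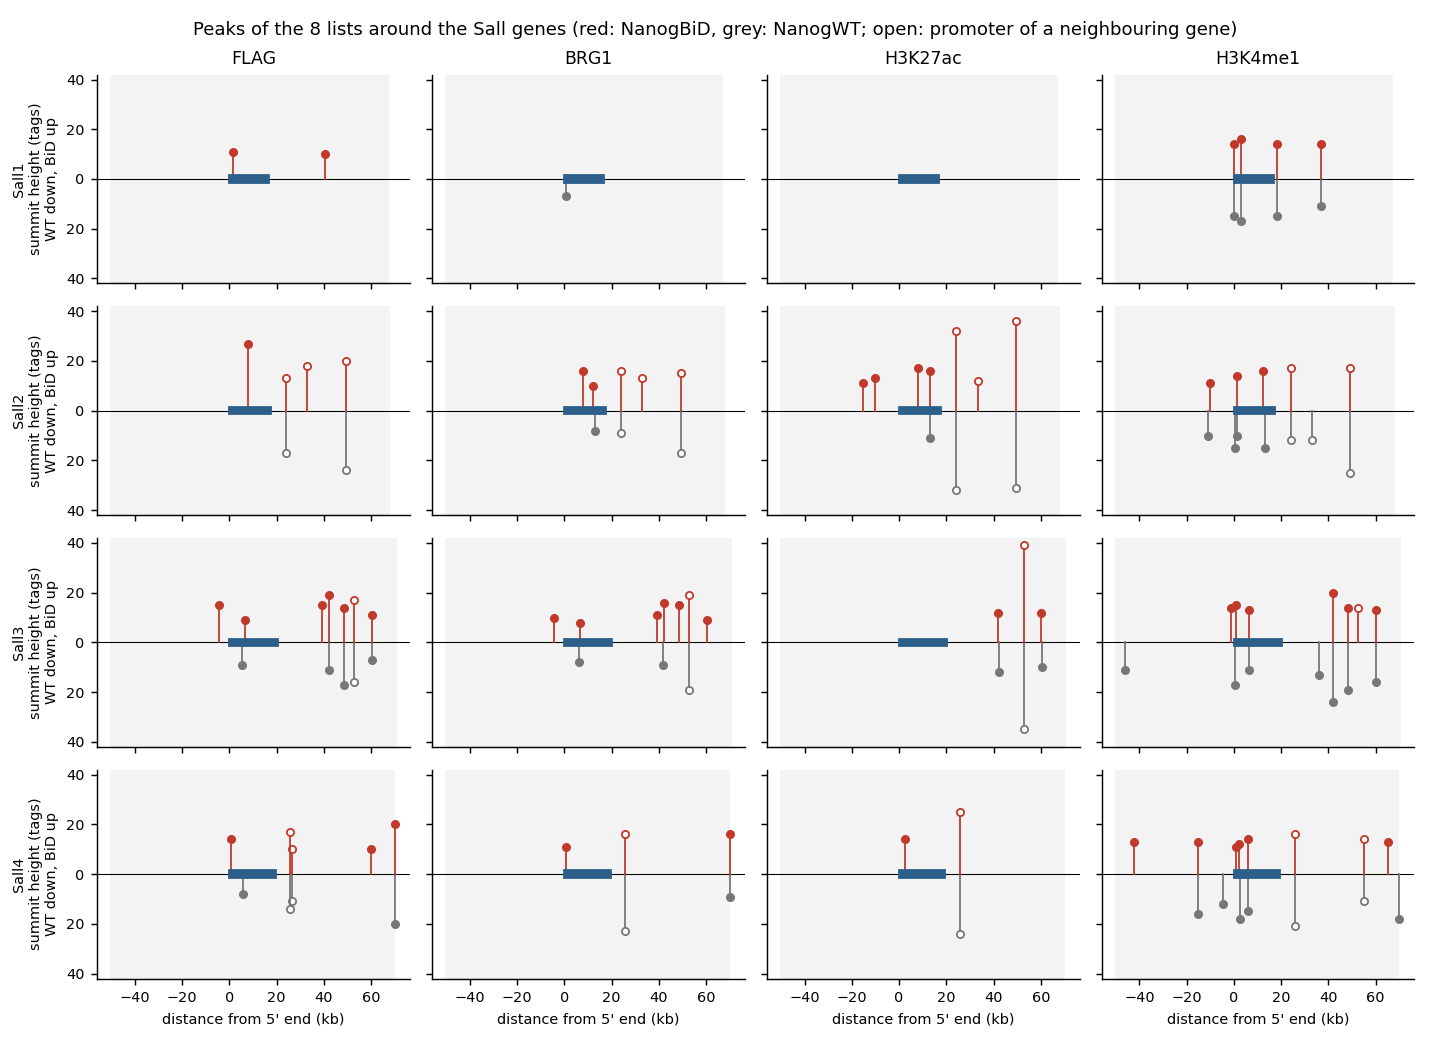
Summit height in tags (NanogBiD upwards in red, NanogWT downwards in grey) against the distance from the 5′ end of each Sall gene in kb, downstream to the right, for every region that touches a window. The blue bar is the gene body, the shaded span the window, and open circles are promoters of neighbouring genes. The tall H3K27ac summits of 24 to 39 tags are at open circles, and the Sall4 promoter has red FLAG, BRG1 and H3K27ac peaks with no grey partner.

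Over the family, FLAG, BRG1 and H3K27ac peaks were more numerous in NanogBiD and H3K4me1 peaks were not, but no difference was beyond counting error. The ratio of peak numbers, NanogBiD over NanogWT, was 1.64 for FLAG (interval 0.732 to 3.83) and 1.88 for BRG1 (0.746 to 5.11). It was 1.71 for H3K27ac (0.622 to 5.14) and 0.96 for H3K4me1 (0.525 to 1.75), and every interval held 1. The 4 windows held 11 FLAG peaks in NanogWT and 18 in NanogBiD. For BRG1 there were 8 and 15, for H3K27ac 7 and 12, and for H3K4me1 25 and 24. The NanogBiD count of BRG1 includes 1 peak at the edge of the Sall4 window, whose NanogWT partner ended outside and was not counted. FLAG peaks were more numerous in NanogBiD at all 4 genes, where 52% of all protein-coding gene windows had more. BRG1 peaks were more numerous at Sall2, Sall3 and Sall4 (54.8% of all windows) and fewer at Sall1 (10.9% of all windows). H3K27ac peaks were more numerous at Sall2 and Sall4 (39.7% of all windows) and equal at Sall1 and Sall3 (43.9% of all windows). H3K4me1 peaks were more numerous at Sall4 (16.4% of all windows), fewer at Sall2 (52.4% of all windows) and equal at the other two (31.2% of all windows). In their sums, FLAG, BRG1 and H3K27ac thus went in the direction in which the lists themselves differed in size. H3K4me1 was nearly equal in the 2 arms, and single genes did not all follow the lists.

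**Figure D2:**
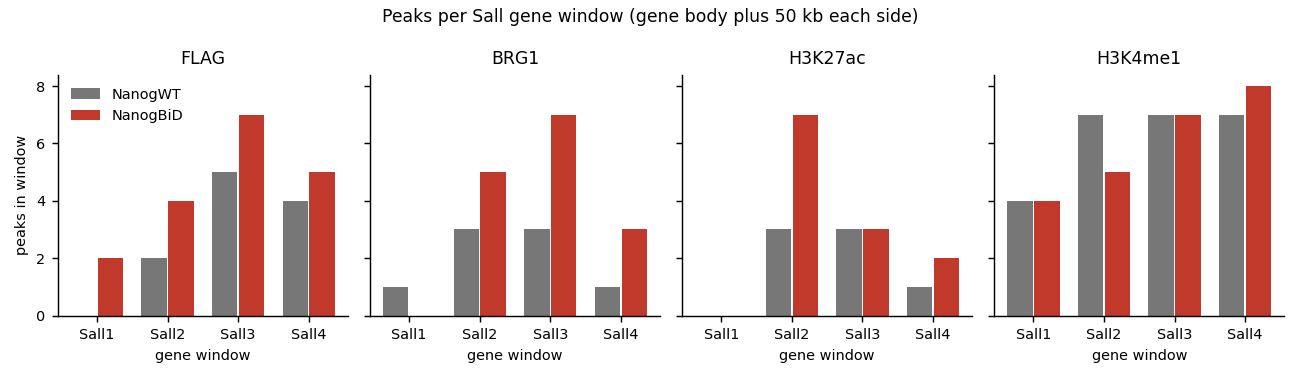
Number of peaks in the window of each Sall gene, with NanogWT in grey and NanogBiD in red, 1 panel a target. The widest gaps are H3K27ac at Sall2 with 3 against 7 peaks and BRG1 at Sall3 with 3 against 7.

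The summed excess of FLAG and BRG1 peaks kept its direction at a score of at least 100. There were 6 FLAG peaks in NanogWT and 9 in NanogBiD (ratio interval 0.477 to 5.12), and 4 and 7 BRG1 peaks (0.445 to 8.15). By gene, both stayed more numerous at Sall2 and Sall3. FLAG was then equal at Sall1 (0 and 0) and Sall4 (2 and 2), and BRG1 at Sall4 (1 and 1). With flanks of 20 kb FLAG was also equal at Sall4 (3 and 3). The summed excess turned when each list was cut to its 20000 highest-scoring peaks, which sets a different score in each list. FLAG then left 3 peaks in NanogWT and 2 in NanogBiD, and BRG1 left 5 and 2. H3K27ac kept its direction with 4 and 5.

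When the peaks of both arms were merged for each target, FLAG gave 20 regions, of which 9 were shared (50.5% over all regions), 9 (45%, exact 95% interval 23.1 to 68.5) were in NanogBiD only and 2 (10%) in NanogWT only. Over all FLAG regions 33.7% were in NanogBiD only and 15.8% in NanogWT only. BRG1 gave 17 regions, of which 7 were shared (41.6% over all), 8 (47.1%, interval 23.0 to 72.2) were in NanogBiD only and 2 (11.8%) in NanogWT only, with 48.4% and 9.91% over all regions. H3K27ac gave 12 regions, of which 7 were shared (56.4% over all), 5 (41.7%, interval 15.2 to 72.3) were in NanogBiD only and 0 in NanogWT only, which allows a share of up to 26.5%, with 29.1% and 14.6% over all regions. H3K4me1 gave 29 regions, of which 19 were shared (47.9% over all), 4 (13.8%) were in NanogBiD only and 6 (20.7%) in NanogWT only, with 17.3% and 34.8% over all regions. All 8 intervals held the share over all regions.

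**Figure D3:**
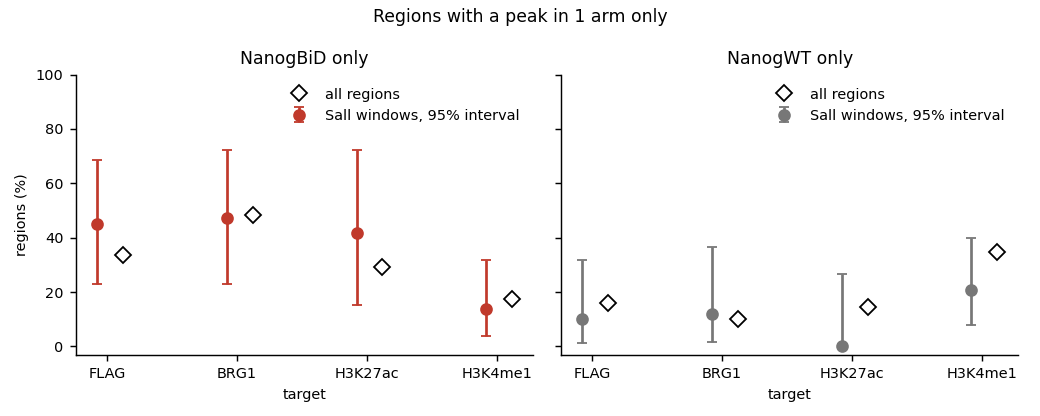
Percent of the regions in the Sall windows that had a peak in 1 arm only (filled circles, bars are exact 95% binomial intervals), beside the percent over all regions (open diamonds), for each target. The diamonds lie inside the bars in all 8 cases, with 45% against 33.7% for FLAG in NanogBiD only.

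The regions were then split by place. At the promoters and bodies of the Sall genes themselves there were 6 FLAG regions, and 0 of them were shared (exact 95% interval up to 45.9%), where 54.2% of FLAG regions in a promoter or body of any protein-coding gene were shared. Of these 6, 4 were in NanogBiD only and 2 in NanogWT only. BRG1 also had 6 such regions, of which 1 was shared (16.7%, interval 0.421 to 64.1), 3 were in NanogBiD only and 2 in NanogWT only, with 48.4% shared over all genes. The BRG1 count includes 2 peaks at the inner start of Sall2, 1 from each arm and 24 bp apart, and with peaks merged across gaps of 500 bp 2 of 5 BRG1 regions were shared, against 0 of 6 for FLAG. The FLAG count includes 2 peaks in the body of Sall3, 1 from each arm and 624 bp apart, and over the regions merged from all 8 lists 1 of 5 was shared for FLAG (20%, interval 0.505 to 71.6) and 2 of 5 for BRG1. In the rest of the windows 9 of 14 FLAG regions and 6 of 11 BRG1 regions were shared, and none of either was in NanogWT only. For H3K4me1 8 of 10 regions were shared at the Sall genes (80%, interval 44.4 to 97.5; 51.2% over all genes) and 11 of 19 elsewhere (57.9%, interval 33.5 to 79.7). This split by place was chosen after the values were seen.

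Where a region was shared, no height ratio left the range of counting error. The median log2 ratio of NanogBiD over NanogWT at the Sall windows was 0 for FLAG (9 regions) and 0 for BRG1 (7 regions), where the medians over all shared regions were 0.15 and 0.14. It was 0.16 for H3K27ac (7 regions; 0.08 over all) and -0.10 for H3K4me1 (19 regions; -0.18 over all). For BRG1, 3 of the 7 regions went from 9 to 16 tags (ratio 1.78, interval 0.740 to 4.56), and without the promoters of neighbouring genes the median was 0.83 over 3 regions. The interval of the ratio held 1 at every shared region. With heights of 7 to 39 tags these intervals are wide, and a change of 1.7-fold such as that of FLAG at 1 Sall3 region (ratio 1.73, interval 0.781 to 4.02) was not detectable.

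**Figure D4:**
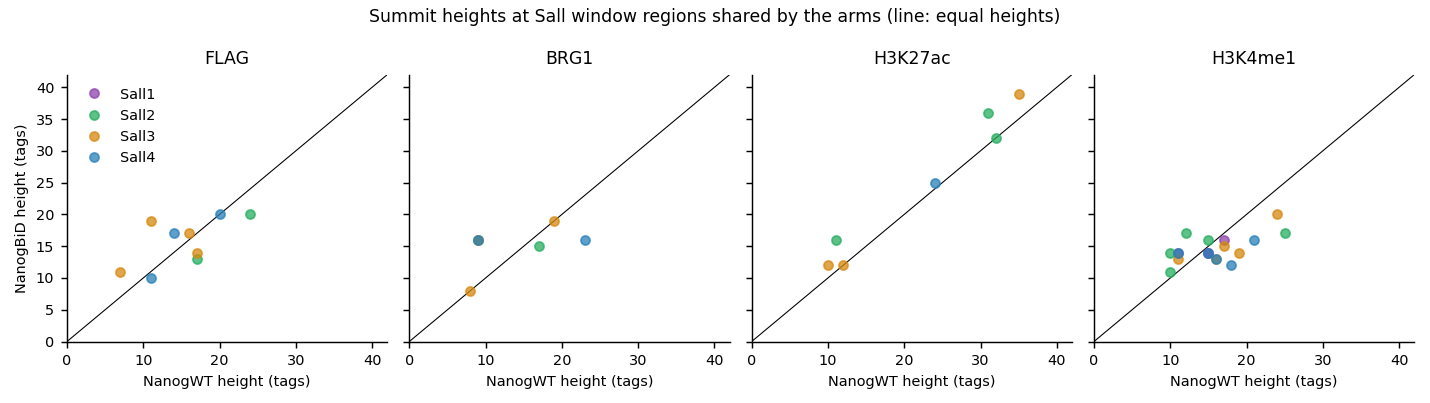
Summit height in NanogBiD against that in NanogWT, both in tags, at regions of the Sall windows shared by the arms, coloured by gene, with the line of equal heights. Points lie on both sides of the line for FLAG, BRG1 and H3K4me1, on or above it for H3K27ac, and some points coincide.

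Most FLAG peaks of the windows overlapped BRG1. In NanogBiD 14 of 18 FLAG peaks (77.8%, exact 95% interval 52.4 to 93.6) overlapped a BRG1 peak, beside 64.7% of all FLAG peaks. In NanogWT it was 7 of 11 (63.6%, interval 30.8 to 89.1), beside 44.1% of all. In turn, 14 of 15 BRG1 peaks overlapped FLAG in NanogBiD (93.3%, interval 68.1 to 99.8; 90.5% of all BRG1 peaks), and 5 of 8 in NanogWT (62.5%, interval 24.5 to 91.5; 84.4% of all). At regions with both, the FLAG and BRG1 summits were a median of 84.5 bp apart in NanogBiD (14 regions, 4 to 235 bp) and 78 bp apart in NanogWT (7 regions, 15 to 979 bp). Of the 34 regions, 5 had FLAG and BRG1 in NanogBiD only (14.7%, interval 4.95 to 31.1), beside 8.31% of all regions. There were 2 in the window of Sall2, of which 1 was at the promoter of Mettl3, 2 in that of Sall3, 1 at Sall4 and 0 at Sall1. H3K27ac was also in NanogBiD only at 3 of these 5 regions, the Mettl3 region among them. This is 8.82% of the 34 regions (interval 1.86 to 23.7) beside 1.89% over all. No region had FLAG and BRG1 in NanogWT only, where 1.13% of all regions did. Peaks of all 8 lists met at 4 regions (11.8%, interval 3.30 to 27.5; 12% of all regions), which were 3 neighbours' promoters and 1 intergenic region near Sall3. H3K4me1 stood alone at 13 regions (38.2%, interval 22.2 to 56.4), beside 21% of all regions.

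The 4 genes had different sets of peaks at their own promoters, within 2 kb of a start site. FLAG was there in NanogBiD only at Sall1 and Sall4 (5.31% of all promoters) and absent from both arms at Sall2 and Sall3 (39.5%). BRG1 was in NanogBiD only at Sall4 (5.15%), in NanogWT only at Sall1 (3.6%), in both arms at Sall2 (50.3%) and absent at Sall3 (40.9%). H3K27ac was in NanogBiD only at Sall4 (4.29%), in both arms at Sall2 (55.6%) and absent at Sall1 and Sall3 (38.6%). H3K4me1 was the mark that all 4 promoters had in both arms (57.8%).

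Sall4 (ENSMUSG00000027547.17, chr2:168748332-168767943) was the member with FLAG, BRG1 and H3K27ac at its own promoter in NanogBiD and none of these 3 there in NanogWT. The promoter region lay at chr2:168764886-168767528, over the first exons, and the noncoding gene Gm14261 also starts there. The FLAG peak of NanogBiD was 14 tags high (score 72.4), the BRG1 peak 11 tags (score 63.2) and the H3K27ac peak 14 tags (score 112). The FLAG and BRG1 summits were 6 bp apart, 0.784 and 0.790 kb downstream of the outermost of the 6 annotated starts and among 3 of the others, whereas the H3K27ac summit was at 2.61 kb. The FLAG peak stood at percentile 42.7 of the heights and 22.5 of the scores in its list, and the BRG1 peak at percentiles 35.3 and 17.6. H3K4me1 was present in both arms, with 1 peak of 18 tags in NanogWT and 2 peaks of 12 and 11 tags in NanogBiD, the second of them over the FLAG and BRG1 summits. H3K4me1 peaks at this promoter thus covered 1183 bp in NanogWT and 2099 bp in NanogBiD. FLAG, BRG1 and H3K27ac were all in NanogBiD only at 80 of the 21911 promoters (0.365%), and FLAG and BRG1 at 314 (1.43%). The pattern depended on the threshold: of the 4 targets with a peak here in NanogBiD, 1 had a score of at least 100, and none was left among the 20000 highest-scoring peaks or at a height of at least 15 tags.

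**Figure D5:**
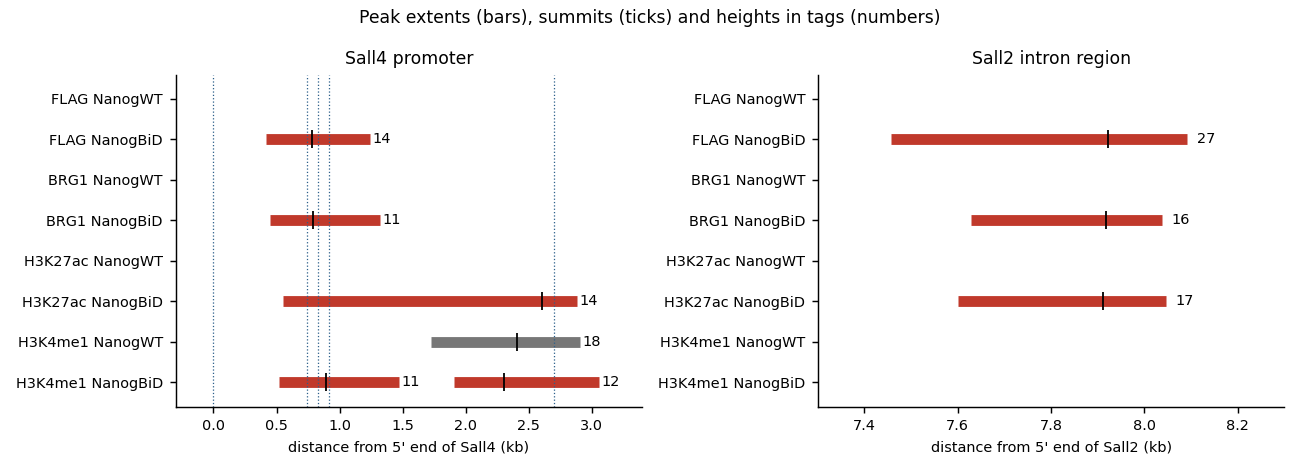
Extents of the peaks (bars), their summits (ticks) and heights in tags (numbers) at the Sall4 promoter and at the intron region of Sall2, against the distance in kb from the 5′ end of the gene, with NanogWT in grey and NanogBiD in red. Dotted lines are annotated starts of Sall4. FLAG, BRG1 and H3K27ac have bars in NanogBiD only at both places, and the H3K4me1 bar of NanogWT at Sall4 stops short of the FLAG summit.

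In the rest of the Sall4 window no region had FLAG and BRG1 in 1 arm only. The Sall4 intron had a FLAG peak in NanogWT only, 8 tags high and at percentile 4.24 of its list, over H3K4me1 peaks of 15 tags in NanogWT and 14 in NanogBiD. The promoter of Atp9a, which encodes a phospholipid flippase, had peaks in all 8 lists: its taller FLAG peak was 14 tags in NanogWT and 17 in NanogBiD, BRG1 was 23 and 16 (ratio 0.696, interval 0.343 to 1.38) and H3K27ac was 24 and 25. A region in an Atp9a intron touched the far edge of the window, with its summits outside. Its FLAG summits were 20 tags in each arm and its BRG1 summits 9 and 16 tags, with H3K4me1 at 18 tags in NanogWT and no H3K4me1 peak in NanogBiD. It reached into the window by 24 bp for FLAG in NanogWT and 122 bp in NanogBiD, and the BRG1 peak of NanogWT ended outside. Another Atp9a intron region had FLAG in NanogBiD only, at 10 tags with no BRG1. Of H3K4me1 peaks alone, 1 in an Atp9a intron and 1 upstream of Sall4 (both 13 tags) were in NanogBiD only, and 1 upstream of Sall4 (12 tags) was in NanogWT only.

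Sall1 (ENSMUSG00000031665.7, chr8:89027235-89044162) had the fewest peaks of the family, and no H3K27ac peak in either arm. FLAG had 0 peaks in NanogWT and 2 in NanogBiD, and BRG1 had 1 and 0. Peaks of BRG1 in NanogWT only were found in 0.685% of all gene windows. At the promoter the FLAG peak of NanogBiD (11 tags, score 60.7) had its summit 1.31 kb downstream of the annotated GENCODE start, just past the inner RefSeq start whose upstream bases are printed above. The BRG1 peak of NanogWT (7 tags, score 60.4) had its summit 0.634 kb downstream of the GENCODE start, in the other printed stretch. Both were near the lower end of their lists, at percentiles 20.9 and 1.79 of height, and neither was left at a score of at least 100. The only other FLAG peak, 10 tags high, was 23.2 kb beyond the 3′ end of the gene, over the stretch with a SOX and a TEAD match. H3K4me1 was the steadiest target here, with 4 peaks in each arm and all 4 regions shared: 15 and 14 tags at the start, 17 and 16 further inside, 15 and 14 just past the 3′ end and 11 and 14 at 19.5 kb beyond it, in NanogWT and NanogBiD respectively.

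Sall2 (ENSMUSG00000049532.11, chr14:52311172-52328762) gained the most H3K27ac peaks, from 3 in NanogWT to 7 in NanogBiD. A gain of at least 4 was found in 2.78% of all gene windows. The gained peaks were of low score: there were 2 and 3 peaks at a score of at least 100, and 2 and 3 among the 20000 highest-scoring peaks. The tallest peak of the family that was in 1 arm only was a FLAG peak in an intron of Sall2 (chr14:52320670-52321306), whose sequence is printed above. It was 27 tags high in NanogBiD (score 255, percentile 86.3 of heights), with BRG1 at 16 tags (score 111) and H3K27ac at 17 tags (score 65.8). No list of NanogWT had a peak, and H3K4me1 had none in either arm. The FLAG and BRG1 summits were 4 bp apart, 7.9 kb downstream of the outer start. At a height of at least 15 tags all 3 targets stayed, while among the 20000 highest-scoring peaks 1 of the 3 did. The other region of the Sall2 window that had all 3 targets in NanogBiD only was at Mettl3, which encodes the RNA m6A methyltransferase, with 18 tags for FLAG, 13 for BRG1 and 12 for H3K27ac, where H3K4me1 had 12 tags in NanogWT and no peak in NanogBiD.

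The promoters of Sall2 had no FLAG peak in either arm. At the inner start BRG1 was 8 tags in NanogWT and 10 in NanogBiD, in a NanogWT peak that reached over the start and a NanogBiD peak just upstream of it. These were 24 bp apart and so counted as 1 region for each arm. H3K27ac there was 11 tags in NanogWT and 16 in NanogBiD (ratio 1.45, interval 0.634 to 3.47), and H3K4me1 was 15 and 16. The outer start had H3K4me1 alone, with peaks of 10 and 15 tags in NanogWT and 1 peak of 14 tags in NanogBiD. Upstream of Sall2, H3K27ac peaks of 13 tags (9.89 kb from the gene) and 11 tags (14.9 kb) were in NanogBiD only. The promoters of neighbouring genes held the tallest H3K27ac summits of the window in both arms and the tallest FLAG summit in NanogWT, while in NanogBiD the tallest FLAG summit was that of the Sall2 intron. At the shared promoter of Rab2b and Tox4 FLAG was 24 tags in NanogWT and 20 in NanogBiD and H3K27ac was 31 and 36. At the promoter of Mettl3 FLAG was 17 and 13, BRG1 9 and 16, and H3K27ac 32 and 32.

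Sall3 (ENSMUSG00000024565.9, chr18:80966376-80986771) gained the most BRG1 peaks, from 3 in NanogWT to 7 in NanogBiD, and 10.5% of all gene windows gained at least 4. At a score of at least 100 there were 1 and 2 BRG1 peaks, and among the 20000 highest-scoring peaks 2 and 0, so that the direction turned. FLAG went from 5 to 7 peaks, and H3K27ac and H3K4me1 had equal numbers (3 and 7) in both arms. No FLAG, BRG1 or H3K27ac peak was at its promoters. H3K4me1 lay over the outer start as 1 peak of 2744 bp and 17 tags in NanogWT, and as 2 peaks of 15 and 14 tags in NanogBiD with a gap of 432 bp between them that held the start. The changes were around the gene. FLAG and BRG1 were in NanogBiD only 3.89 kb upstream of the gene (15 and 10 tags) and 18.2 kb beyond its 3′ end (15 and 11 tags), with no H3K27ac and no H3K4me1 at either place. At 2 regions where FLAG was shared BRG1 was in NanogBiD only, 15 tags high at 27.6 kb beyond the gene, where FLAG was 17 in NanogWT and 14 in NanogBiD, and 9 tags high in the neighbour Atp9b, where FLAG was 7 and 11. A region 20.8 kb beyond the gene had peaks in all 8 lists, with FLAG at 11 and 19 tags, BRG1 at 9 and 16 (ratio 1.78, interval 0.740 to 4.56), H3K27ac at 12 and 12, and H3K4me1 at 24 and 20. In the gene body FLAG had separate peaks of 9 tags in each arm, while BRG1 was 8 tags in both. The tallest H3K27ac summits of the family, 35 and 39 tags, were at the promoter of Atp9b.

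The members were ordered by the tallest summit inside the window, a choice made after the values were seen, which leaves out the edge region of Sall4. For FLAG in NanogBiD this gave Sall2 (27 tags), Sall3 (19), Sall4 (17) and Sall1 (11). No neighbours in this order differed beyond counting error, with ratios of 1.42 (interval 0.761 to 2.70), 1.12 (0.550 to 2.29) and 1.55 (0.683 to 3.65). Without the promoters of neighbouring genes the order was the same, with Sall4 at 14. With the edge region, Sall4 (20 tags) came before Sall3. In NanogWT the FLAG values were 24 at Sall2, 17 at Sall3 and 14 at Sall4, with no peak at Sall1, and those of Sall2 and Sall4 came from promoters of neighbours. For BRG1 without those promoters the tallest summits were 9 at Sall3, 8 at Sall2 and 7 at Sall1 in NanogWT, with none at Sall4. In NanogBiD they were 16 at Sall2, 16 at Sall3 and 11 at Sall4, with none at Sall1.

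The motifs under the FLAG summits of the 20 regions were few. The octamer ATGCAAAT, bound by OCT factors, was in 0 of them (2.31% of all FLAG regions), a SOX motif was in 4 (20%; 16.4% of all), and the homeodomain core TAATGG of NANOG, an AP-1 motif (TGAGTCA or TGACTCA, the same site on both strands) and a TEAD motif were in 1 each (6.77%, 7.02% and 7.07% of all). Windows were 101 bp and both strands were read. The SOX matches were at the NanogBiD-only regions downstream of Sall1, upstream of Sall3 and downstream of Sall3, and at the NanogWT-only region in the Sall4 intron. The Sall2 intron region and the Sall4 promoter held none of the 5 kinds. In the 250 bases before RefSeq starts, a SOX motif was in 25.2% of 32851 promoters, TEAD in 12.6%, the NANOG core in 6.57%, AP-1 in 4.46% and the octamer in 1.60%.

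Genes of the complex and the network in which SALL proteins work were counted in the same windows. Of 12 NuRD genes FLAG peaks were more numerous in NanogBiD at 10 and fewer at 2, BRG1 more at 7 and fewer at 1, H3K27ac more at 8 and fewer at 0, and H3K4me1 more at 1 and fewer at 9. Over all gene windows the shares with more and fewer were 52% and 15.6% for FLAG, 54.8% and 10.9% for BRG1, 39.7% and 16.4% for H3K27ac, and 16.4% and 52.4% for H3K4me1. Their median difference in FLAG peaks was 2, beside 1 over all genes. The promoters of 10 of the 12 had FLAG and BRG1 in both arms and all 12 had H3K27ac in both, where 51.5%, 50.3% and 55.6% of all promoters had FLAG, BRG1 and H3K27ac in both. No Sall promoter had FLAG in both arms. Mta3, a NuRD subunit, was the gene of this list with FLAG and BRG1 at its promoter in NanogBiD only. Of 24 pluripotency network genes FLAG peaks were more numerous at 13 and fewer at 4, BRG1 at 14 and 3, H3K27ac at 9 and 1, and H3K4me1 at 6 and 13, which for FLAG and BRG1 is near the shares over all windows, with a median difference of 1 for both as over all genes. Esrrb, a nuclear receptor of that network, went from 1 to 6 FLAG peaks, 0 to 5 BRG1 peaks and 1 to 4 H3K27ac peaks, which are wider gaps than those of Sall4, but its promoter had none of the 3 in either arm. Pou5f1, which encodes OCT4 and was also delivered to these cells, was the gene of this list with FLAG and BRG1 at its promoter in NanogBiD only, and it had no H3K27ac there. Nanog, the other delivered gene, had 5 and 7 FLAG peaks and 7 and 5 BRG1 peaks in NanogWT and NanogBiD. Dppa2 and Dppa4 had the same values in every list, so the 24 windows may not all be separate, which was not tested.

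The genes whose tallest summits over the 8 lists were most like those of a Sall gene were found by the Euclidean distance of log2(height + 1), with every peak that touched a window counted. For Sall1 they were En2 (distance 0.386), Neurog3 (0.513) and A630023A22Rik (3.0), with a missing peak counted as a height of 0. This rule picked En2 for its like summits, which were FLAG in NanogBiD only (10 tags), BRG1 in NanogWT only (8 tags) and no H3K27ac. The BRG1 match rests on the Sall1 peak of 7 tags, at percentile 1.79 of its list. For Sall2 the nearest genes were Cox19 and Cyp2w1 (both 0.267, with equal summits in all 8 lists) and C130050O18Rik (0.297). For Sall3 they were Rnf214 (0.239), Cd46 (0.249) and St7l (0.310), and for Sall4 Dtd2 (0.302), Tbc1d15 (0.354) and H2-Ob (0.362). The summits used for Sall4 were all at the Atp9a promoter or in the edge region, and none was at Sall4 itself. For Sall2 and Sall3 the H3K27ac summits were at promoters of neighbouring genes. These distances thus describe the windows with their neighbours, not the Sall genes alone. Within the family Sall2, Sall3 and Sall4 were 0.787 to 0.984 apart, and Sall1 was 9.11 to 9.70 from each of them. The distances of Sall1 rest largely on peaks that its window lacks.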

How the data were processed

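CUT&Tag libraries of 4 targets in 2 arms were analysed, 1 library a group. Per the labels and the study's methods, the authors trimmed reads with Trim Galore 0.6.4, aligned them to mm10 with Bowtie2 2.4.5, filtered them with SAMtools 1.16.1, merged replicates and called peaks with MACS 1.4.2, keeping 1 tag per position and naming no control. The score in the deposited peak lists is the significance score of MACS. The signal in the deposited summit lists is the tag pileup, called height here. Neither is scaled to depth, and a deeper library can give more and taller peaks. The study's supplement states a general minimum of replicates for its experiments, and how many were merged into each list is not given in the sources used here. The labels write the H3K4me1 antibody as H3K4me in 1 field and H3K4me1 in the title.

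Peaks that overlapped or touched were merged into regions, for each target over both arms and for all 8 lists together. A region or peak was assigned to a Sall window when it overlapped the GENCODE vM21 gene body plus 50 kb, and a promoter was 2 kb around a start site. Shares have exact Clopper-Pearson 95% intervals, and ratios of heights have exact binomial ones. No test between arms was made. Regions named were those at a start site, and for each gene the 3 with the highest FLAG summit and the 3 with the largest change of FLAG or BRG1, beside single regions that complete a count. Members, gene lists and rules were chosen with earlier results of these data known. The alternatives tried were a minimum score of 100, lists cut to their 20000 best-scoring peaks, a height of at least 15 tags, flanks of 20 and 100 kb, merging over 500 bp, 100 bp around summits, heights centred on all shared regions and the peak score in place of the height. Chosen after seeing the data were leaving out promoters of neighbouring genes, the order by summits inside the window and the merging of own regions over all 8 lists. Scripts were tested on simulated lists. Python 3.11.15, pandas 2.3.3, SciPy 1.17.1 and pysam 0.24.0 were used.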

Additional observations from a re-analysis of the deposited data

How the results depend on the processing

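No paired analysis was possible because a group is a single library, merged by the authors, without a replicate number in the labels; no replicate could be left out either. Under the alternatives, 122 of the family's shares, height ratios and peak ratios stayed inside the interval of the main value, and 10 fell outside it. These intervals are wide. The cause was not tested where the alternative's construction (fewer peaks kept) does not show it. Peak numbers of single genes, and numbers of targets at named regions, were judged by a change of more than 1.5 times. Of these, 141 stayed and 107 moved. When lists were cut to 20000 peaks by score, the peak ratio of NanogBiD over NanogWT was 0.667 for FLAG and 0.4 for BRG1, the share in NanogWT only was 50% for FLAG (2 of 4) and 60% for BRG1 (3 of 5), and the share in NanogBiD only was 0% for BRG1. The share of BRG1 regions in NanogWT only was 0% with a score of at least 100 (0 of 7) and 0% with a height of at least 15 tags (0 of 8). At that height H3K4me1 had 56.2% in NanogWT only (9 of 16) and a peak ratio of 0.467. Without promoters of neighbouring genes the median log2 ratio of BRG1 was 0.83, over 3 regions, and the FLAG and BRG1 peak ratios were 2 and 2.5. The peak ratio kept its direction in 6 of 7 alternatives for FLAG and for BRG1, with the lists cut to 20000 peaks as the exception, and in 7 of 7 for H3K27ac (1.25 to 2.67). Heights of 7 to 39 tags and the unknown depth limit every value.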
